A study of Mus musculus with 4 samples.

Results

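The 9 genes described here encode apolipoproteins, the factor that assembles them into lipoproteins, and the lipase system that later unloads these particles: Apoa1, Apoa2, Apoa4, Apob, Apoc3, Apoe, Mttp, Lpl and Angptl4. They were chosen by name from the 32285 mouse genes counted, and all 9 were found in the tables. Their levels were compared in hepatocyte nuclei, in 3 zones of the hepatocytes between portal and central vein, and in the other liver cell classes.

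Lipoproteins carry lipids that do not dissolve in blood. Apolipoprotein B (Apob) is the structural protein of very low density lipoprotein, which hepatocytes secrete, and microsomal triglyceride transfer protein (Mttp) loads it with lipid in the endoplasmic reticulum. Apoa1 and Apoa2 are the main proteins of high density lipoprotein. Apoa4, Apoc3 and Apoe exchange between particles: Apoe binds receptors that clear remnants, and Apoc3 slows the breakdown and clearance of triglyceride-rich particles. Lipoprotein lipase (Lpl) hydrolyses the triglyceride of circulating particles at the vessel wall and is made mainly outside the adult hepatocyte, while Angptl4 is a secreted inhibitor of it that fasting raises in liver and fat.

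The study profiled single nuclei of frozen liver from male Bl/6 mice on chow diet (CD) or low-protein diet (LPD), and each combination of diet with control or oncogene injection was 1 library. Each diet was given for 1 week before plasmids were injected into the tail vein and for 2 weeks after it. The oncogene plasmids carried human c-MET and β-catenin (CTNNB1) in a Sleeping Beauty transposon, which inserts them into the genome of those hepatocytes that take them up, and controls received vector. The number of mice behind a library and their exact age were not given for this experiment. The study's general methods, the source of the sex, give an age range and a fast of some hours before mouse experiments, unless stated otherwise. All groups thus share the injection, and no group is free of it.

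The transgenes went against the CD labels. Human transgene UMIs (unique molecular identifiers, each standing for 1 captured RNA molecule) numbered 100 in the library labelled CD control and 0 in the one labelled CD oncogene, against 0 and 6 in those labelled LPD control and LPD oncogene. The direction of every comparison of injections below therefore rests on labels that the CD transgene counts contradict, and the libraries are named by their labels only. The study states more nuclei for the CD vector group than for the CD oncogene group, the reverse of the nuclei kept from the libraries as labelled, and more for the LPD oncogene than for the LPD vector group, the same order as here. Comparisons of diets are therefore also given with the CD libraries exchanged, as crossed pairs. After filtering, 10397, 12552, 9825 and 10103 nuclei remained (the CD control library first, then CD oncogene, then LPD control, with LPD oncogene last, an order kept below). They held a median of 3807, 3294, 1962 and 1762 UMIs, and a median mitochondrial share of 2.42%, 0.983%, 0.09997% and 0.127%. Depth and mitochondrial share separate the CD from the LPD libraries as diet does and cannot be told apart from it. With 1 library per group there was no test, and the intervals given are 95% intervals for counting error only, not for differences between mice.

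Levels are given as CPM, the UMIs of a gene relative to all mouse UMIs of the same set of nuclei on the usual common scale. A gene was counted as past 2-fold when its CPM differed at least 2-fold, among genes with at least 20 CPM in 1 of the sets and at least 50 UMIs in both together. Hepatocytes were 7975, 9646, 7756 and 6827 nuclei, 32204 in all.

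Several members are neighbours in the genome (build GRCm38, GENCODE annotation). Apoa1 (chr9:46228580-46230466, plus strand), Apoc3 (chr9:46232933-46235636, minus strand) and Apoa4 (chr9:46240696-46243459, plus strand) follow each other with gaps of 2.47 kb and 5.06 kb, and Apoa5, an activator of lipolysis, lies 25.2 kb further on. Apoe (chr7:19696109-19699188, minus strand) lies 3.45 kb from Apoc1. The other members stand alone: Apoa2 (chr1:171225054-171226379, plus), Apob (chr12:7977648-8016835, plus), Mttp (chr3:138089854-138144968, minus), Lpl (chr8:68880491-68907448, plus) and Angptl4 (chr17:33773750-33781830, minus). All are protein-coding. The 5 small apolipoprotein genes span 1.33 to 3.08 kb and Apob, Mttp and Lpl span 39.2, 55.1 and 27.0 kb.

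Promoter windows from RefSeq (GRCm38.p6) were found for 6 of the 9 members, Apoa1, Apoa2, Apoa4, Apob, Apoe and Mttp. The 250 bases before each start were searched on both strands. The TATA box, searched as TATAAA, occurred in 12.4% of the 32851 windows of all genes, the HNF4 element CAAAGTCCA in 0.384%, and the nuclear receptor core AGGTCA in 14.0%. The HNF1 core GTTAAT occurred in 6.43%, the E-box CACGTG in 6.02% and the element TTGCATCA of CHOP and ATF4 in 0.791%. The window of Apob held a TATA box 60 bases before its start, and 1 window of Apoa2 held a TATA box at 212 and another the nuclear receptor core at 238. The Apoe window at the annotated gene start held 0 matches. Another, with its start 567 bases inside the gene, held overlapping TATAAA matches on opposite strands at 96 and 100. The last, with its start 790 bases inside the gene, held the HNF1 core at 172. None of these letters occurred in the windows of Apoa1, Apoa4 and Mttp. The sequence upstream of both annotated starts is shown for Apoa1 and Apoa4, 2 members of the chromosome 9 run whose levels differed unlike each other between diets, and for Apob, whose window is the only one with a TATA box within 60 bases of the start. The first is chr9:46228380-46228579, the second chr9:46240594-46240695 and the last chr12:7977427-7977647, all on the plus strand and written 5′ to 3′, with the TATA box in capitals. The bases between these stretches and the RefSeq starts were left out.
Apoa1: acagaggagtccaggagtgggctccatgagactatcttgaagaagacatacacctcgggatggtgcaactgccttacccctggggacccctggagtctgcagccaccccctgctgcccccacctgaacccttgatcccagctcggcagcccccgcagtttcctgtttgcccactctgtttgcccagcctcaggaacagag
Apoa4: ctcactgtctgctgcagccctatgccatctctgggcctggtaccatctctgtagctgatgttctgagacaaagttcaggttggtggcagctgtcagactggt
Apob: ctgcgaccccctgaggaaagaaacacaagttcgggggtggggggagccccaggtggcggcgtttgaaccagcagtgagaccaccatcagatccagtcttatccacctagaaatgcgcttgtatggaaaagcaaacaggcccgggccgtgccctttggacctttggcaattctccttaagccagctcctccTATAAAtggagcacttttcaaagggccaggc

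Apoa4 was the member that was higher in both LPD libraries than in both CD libraries past 2-fold. Its hepatocyte level was 5.61 CPM (4.95 to 6.33) in the library labelled CD control, 11.9 CPM (10.96 to 12.8) in CD oncogene, 44.6 CPM (41.8 to 47.6) in LPD control and 63.3 CPM (59.8 to 67.0) in LPD oncogene. The lower LPD level was thus several times the higher CD level. The LPD control library stood 7.95-fold above CD control (log2 ratio 2.99, 2.79 to 3.20), and LPD oncogene 5.34-fold above CD oncogene (2.42, 2.28 to 2.56). Within the CD pair, the library labelled CD oncogene was 2.11-fold above CD control, but both lay under the 20 CPM minimum. The crossed pairs, which matter because of the contradicted CD labels, gave 3.76-fold for LPD control over CD oncogene and 11.3-fold for LPD oncogene over CD control. In these 4 pairs 4.02% of 6537 genes were higher in LPD past 2-fold, against 1 of the 8 members tested, and 1.39% were lower, against 0 of 8. At equal depth the share of nuclei with Apoa4 did not separate hepatocytes from lymphocytes, while per nucleus hepatocytes held more, as given below. These levels describe sets of hepatocyte nuclei with the free RNA they hold. The neighbours Apoa1 and Apoc3 on chromosome 9 did not share the size of this difference, as their values below show.

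**Figure D1:**
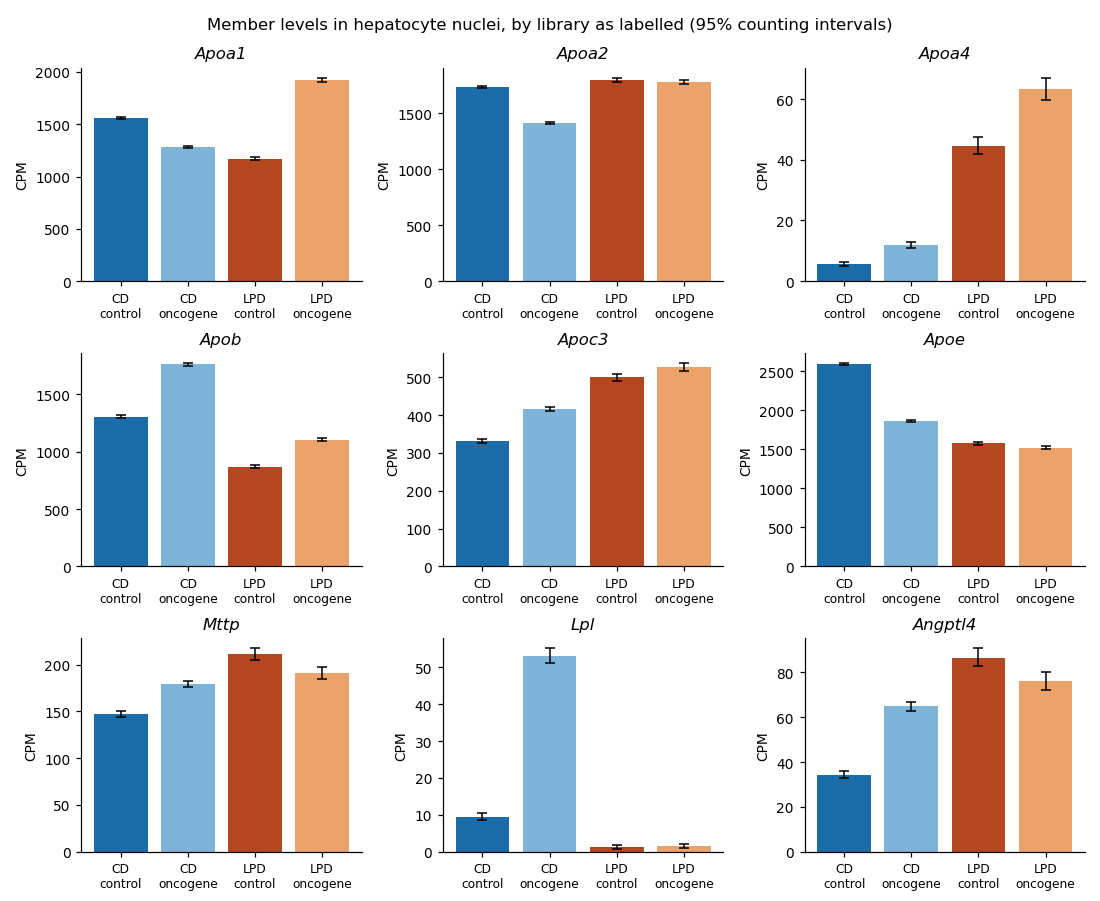
Bars give the hepatocyte level of each of the 9 members (CPM, each panel with its own axis from 0) in the 4 libraries, and error bars the 95% counting interval. Apoa4 runs from 5.61 to 63.3 CPM with both LPD libraries above both CD libraries, and Lpl is highest in the library labelled CD oncogene at 53.2 CPM.

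Lpl differed most in the other direction. It was at 9.51 CPM (444 UMIs) in the library labelled CD control, 53.2 CPM (2910 UMIs) in CD oncogene, 1.22 CPM (25 UMIs) in LPD control and 1.54 CPM (29 UMIs) in LPD oncogene. The 2 LPD libraries lay below both CD libraries, and the CD libraries lay far apart. The library labelled CD oncogene was 5.59-fold above CD control (log2 2.48, 2.34 to 2.63), while LPD oncogene over LPD control gave a log2 ratio of 0.34 (-0.49 to 1.17), which the counts do not separate from 0. LPD oncogene over CD oncogene gave -5.11 (-5.69 to -4.58) and LPD control over CD control -2.96 (-3.60 to -2.38). The crossed pairs gave -5.44 (-6.07 to -4.88) for LPD control over CD oncogene and -2.62 (-3.22 to -2.08) for LPD oncogene over CD control, so the larger ratio went with the library labelled CD oncogene in both pairings. Neither library of the pairs with CD control reached 20 CPM, so Lpl was not counted there. The 8 Kupffer markers summed to 115, 126, 137 and 197 CPM in hepatocyte sets, the 8 stellate markers to 54.8, 33.9, 46.9 and 98.5 CPM and the 8 sinusoidal endothelial markers to 67.8, 82.3, 40.6 and 52.3 CPM, none of them at 0. The first 2 lists were highest in LPD oncogene and the last in the library labelled CD oncogene, where Lpl was highest too, and their part in the Lpl level was not tested.

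Angptl4, the inhibitor of that lipase, was lowest in the library labelled CD control. The levels were 34.4, 64.8, 86.6 and 76.1 CPM. LPD control was 2.52-fold above CD control (log2 1.33, 1.24 to 1.43) and LPD oncogene 2.21-fold above it (1.15, 1.04 to 1.25), but both LPD libraries lay close to CD oncogene, at log2 ratios of 0.42 and 0.23, the second of which became -0.04 under TMM scaling. The 2 CD libraries differed by a log2 ratio of 0.92 (0.83 to 1.00), just under 2-fold. Among the 4 pairs of diets, Angptl4 was thus past 2-fold only in those with the library labelled CD control.

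Apob and its loading factor Mttp differed less. Apob was at 1307, 1762, 870.1 and 1106 CPM, with log2 ratios of -0.59 (-0.61 to -0.56) for LPD control over CD control and -0.67 (-0.69 to -0.65) for LPD oncogene over CD oncogene. It was lower in each LPD library than in each CD library, past 2-fold only for LPD control over CD oncogene, at -1.02, which 4 alternatives brought just under 2-fold, to between -0.99 and -0.97. Mttp was at 147, 179, 211 and 191 CPM, and its log2 ratios were 0.52 (0.47 to 0.58) and 0.09 (0.04 to 0.15), the latter -0.18 under TMM scaling. The 2 partners of very low density lipoprotein assembly therefore did not differ in the same direction between LPD control and CD control.

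The high density lipoprotein genes stayed within 2-fold. Apoa1 was at 1558, 1282, 1170 and 1925 CPM, highest in LPD oncogene, with LPD oncogene over LPD control at 0.72 (0.70 to 0.74). Apoa2 was at 1733, 1414, 1798 and 1781 CPM, and its largest log2 ratio among the 4 main comparisons was 0.33. Apoc3, at 331, 415, 499.7 and 527 CPM, was higher in both LPD libraries than in both CD libraries, by 0.27 to 0.67 on the log2 scale. Apoe, at 2592, 1867, 1579 and 1522 CPM, was lower in both, by -0.24 to -0.77, which did not hold in nuclei with little mitochondrial RNA, as given next.

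Counted over comparisons, 1 of 8 members (Lpl) was past 2-fold in CD oncogene over CD control, where 5.85% of 6466 genes were. In LPD oncogene over LPD control 0 of 8 were, against 3.06% of 6853. In LPD control over CD control 2 of 8 were (Apoa4 and Angptl4), against 13.9% of 7029, and in LPD oncogene over CD oncogene 2 of 9 (Apoa4 and Lpl), against 16.8% of 6819. In the crossed pairs, 3 of 9 were in LPD control over CD oncogene (Apoa4, Apob and Lpl), against 16.2% of 6878, and 2 of 8 in LPD oncogene over CD control (Apoa4 and Angptl4), against 14.5% of 6971. The medians of the members in the first 4 comparisons were 0.31, 0.03, 0.29 and 0.23 on the log2 scale, beside -0.12, -0.03, 0.18 and 0.26 over all genes tested. The median of the members thus stood farthest from that of all genes between the CD libraries, and with 8 or 9 members a single gene moves these shares widely.

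**Figure D2:**
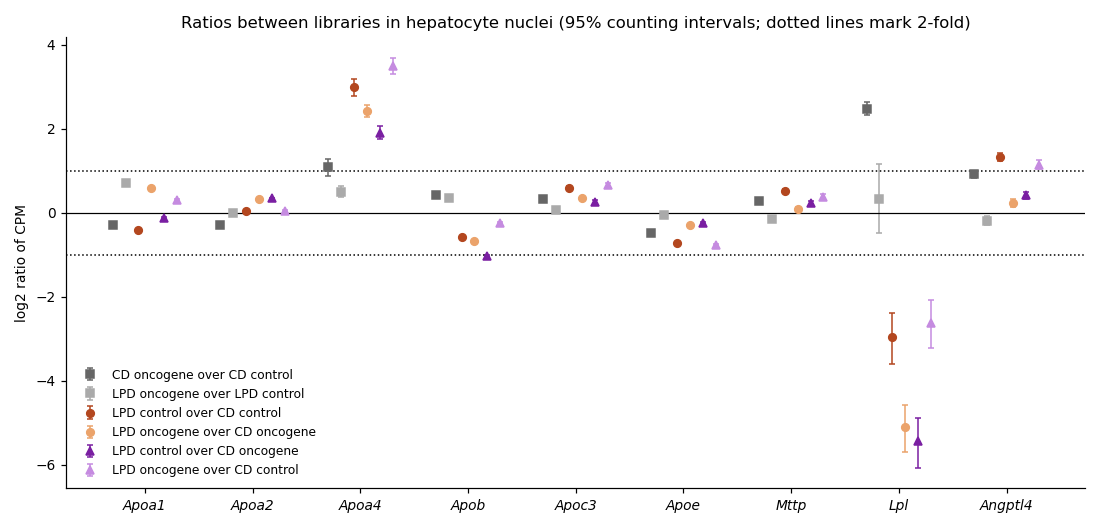
Log2 ratio of hepatocyte CPM for each member in the 4 comparisons (squares and circles) and the 2 crossed pairs of libraries (triangles), with 95% counting intervals and dotted lines at 2-fold. Apoa4 lies at 2.99 and 2.42 in the comparisons of diets, and Lpl at 2.48 between the CD libraries and -5.11 between the oncogene libraries.

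Within each library the small apolipoprotein genes were higher in hepatocyte nuclei with more mitochondrial RNA, a split added after seeing the data. Nuclei with over 1% numbered 5244, 4080, 573 and 670. They had 2.77, 2.90, 5.49 and 3.08 times the Apoa1 CPM of the nuclei with at most 1% mitochondrial UMIs. The factor was 3.18, 4.62, 9.24 and 7.38 for Apoa2, 2.76, 3.98, 7.79 and 5.12 for Apoc3, and 3.35, 5.56, 9.63 and 7.69 for Apoe. Apob stayed at 1.03 to 1.35, Mttp at 0.852 to 1.05 and Angptl4 at 0.907 to 1.67. Of 7 members tested in all 4 libraries, 4 were at least 2-fold higher in each, the 4 small genes just named, against 1.22% of 5637 genes. Apoa4 gave factors of 4.997, 5.10, 10.6 and 6.48 but was under the minimum level in the library labelled CD control, and Lpl rested on 25 and 29 UMIs in the LPD libraries. The 5 members with the higher factors are the shortest genes. Over all genes, those spanning under 5 kb had median log2 ratios of 0.36, 1.04, 1.84 and 1.91, and longer genes -0.22, -0.30, -0.45 and -0.38. Of the genes under 5 kb, 16.3, 51.8, 66.5 and 70.8% were at least 2-fold higher, against 0.465, 1.98, 8.83 and 9.46% of longer genes. The pattern is thus shared with many other short genes and is not particular to the members.

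The comparisons of libraries changed with this split for some members and not for others. In nuclei with at most 1% mitochondrial UMIs, Apoa4 was at 1.67, 5.03, 31.4 and 49.0 CPM, so that the LPD over CD log2 ratios were 4.23 and 3.29. Apoe was there at 1087, 744, 1146 and 1122 CPM and Apoa1 at 763, 787, 978 and 1733 CPM. The log2 ratio of LPD control over CD control turned from -0.71 to 0.08 for Apoe and from -0.41 to 0.36 for Apoa1, and that of LPD oncogene over CD oncogene from -0.29 to 0.59 for Apoe. In that comparison 5 of 9 members were past 2-fold in these nuclei, where 17.6% of 6802 genes were, with Apoa1 at 1.14, Apoa2 at 1.05 and Apoc3 at 1.05 beside Apoa4 and Lpl. For LPD control over CD control 3 of 8 were (Apoa4, Angptl4 and Apoc3, the last at 1.25), against 14.1% of 7098. The crossed pairs gave 3 of 9 for LPD control over CD oncogene (Apoa2, Apoa4 and Lpl), against 16.8% of 6859, and 4 of 8 for LPD oncogene over CD control (Apoa1, Apoa4, Apoc3 and Angptl4), against 14.5% of 7045. Between the CD libraries 1 of 8 was (Lpl), against 7.05% of 6596, and between the LPD libraries 0 of 8, against 3.11% of 6814. The part of mitochondrial content in the results of the small genes was not tested beyond these values. With the limit, Apoe changed direction in all 4 pairs of diets and Apoa1 in those with LPD control, while Apoa1 was higher in LPD oncogene than in both CD libraries with and without it.

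**Figure D3:**
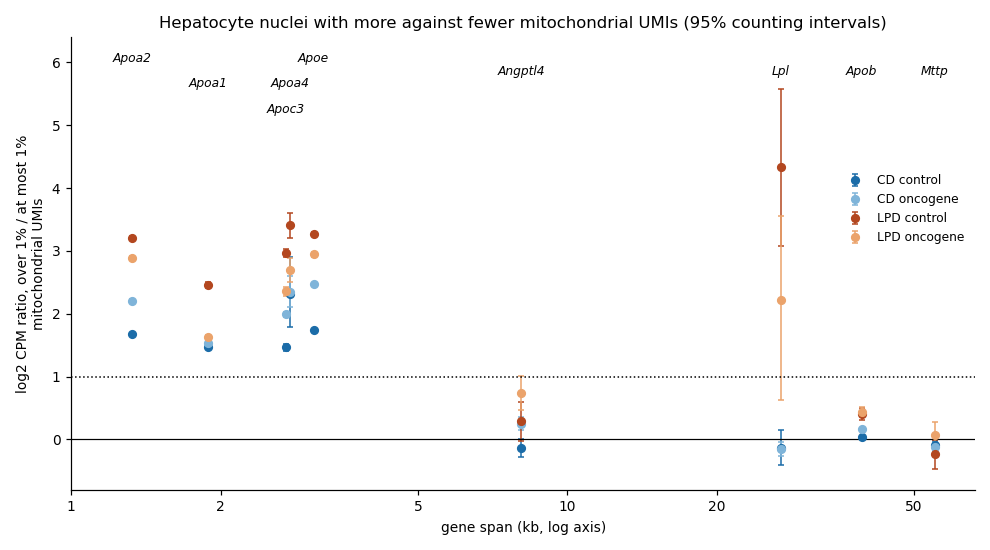
Log2 ratio of the CPM in hepatocyte nuclei with over 1% to that in nuclei with at most 1% mitochondrial UMIs, by member and library, against the span of the gene in kb (log axis), with 95% counting intervals and a dotted line at 2-fold. The 5 short genes on the left lie at 1.46 or more in all 4 libraries, Apob and Mttp between -0.23 and 0.43, and the high Lpl values of the LPD libraries rest on 25 and 29 UMIs.

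The small apolipoprotein genes were also higher in hepatocyte clusters rich in haemoglobin RNA. In 2 hepatocyte clusters haemoglobin UMIs were at least 2-fold above the other hepatocytes, and these clusters held 16.8, 18.4, 18.7 and 18.7% of the hepatocytes. Their median mitochondrial share was 3.14, 1.59, 0.200 and 0.297% in 1 and 8.93, 9.57, 4.13 and 4.24% in the other. Over all hepatocytes it was 1.85, 0.716, 0.0843 and 0.101%, so this division overlaps with the split above. The 2 clusters were also shallow, at medians of 1084 and 1529.5 UMIs against 3091.5 over all hepatocytes. Haemoglobin over all hepatocytes was at 171, 94.95, 80.4 and 832 CPM, lowest in LPD control and highest in LPD oncogene, the libraries with the higher Apoa4 levels. Apoa2 was at 4705, 6019, 6636 and 6419.9 CPM in these clusters and at 1588, 1091, 1351 and 1377 CPM in the other hepatocytes, and Apoa1, Apoc3 and Apoe were higher in the clusters in every library as well. Apoa4 was at 17.0, 45.2, 194.8 and 233.1 CPM in them and at 5.1, 9.5, 30.8 and 48.5 CPM in the other hepatocytes. Without these clusters the log2 ratio was 2.61 for LPD control over CD control and 2.35 for LPD oncogene over CD oncogene. The difference of Apoa4 between diets was therefore present on both sides of this division.

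Along the lobule Lpl was the member with the steepest gradient in both CD libraries. Hepatocytes of each library were ranked by pericentral over periportal markers, with the members left out, and divided into 3 zones of equal size. Zones of the same name cover different score ranges. Their limits were -0.11 and 0.88 in the library labelled CD control, -0.73 and -0.09 in CD oncogene, -0.80 and -0.09 in LPD control, and -0.31 and 0.24 in LPD oncogene. Limits common to all libraries put 54.6, 21.9, 23.3 and 33.4% of hepatocytes in the pericentral part. Lpl was at 1.7, 6.6 and 20.7 CPM in the periportal, middle and pericentral zones of the library labelled CD control, and at 14.4, 32.3 and 107.9 CPM in CD oncogene. The log2 ratio of the pericentral over the periportal zone was 3.60 (3.05 to 4.20) and 2.91 (2.73 to 3.09). In LPD oncogene the zones were at 0.657, 1.14 and 2.73 CPM, at 2.06 (0.45 to 4.08), and in LPD control the periportal zone held 0 UMIs and the pericentral zone 16. The levels in the LPD libraries were too low for Lpl to be counted as zoned in all 4. The pericentral cluster led by Glul held Lpl at 18.2, 149.8, 4.59 and 5.84 CPM.

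Apoa4 had its lowest level in the pericentral zone of each library. It was at 8.27, 4.83 and 3.40 CPM from periportal to pericentral in the library labelled CD control, at 14.7, 14.1 and 7.28 CPM in CD oncogene, at 40.9, 56.2 and 37.9 CPM in LPD control, and at 72.1, 79.4 and 40.3 CPM in LPD oncogene. The log2 ratios were -1.28 (-1.77 to -0.82), -1.02 (-1.31 to -0.73), -0.11 (-0.35 to 0.14) and -0.84 (-1.07 to -0.62), so that the interval of LPD control covers 0, and over the alternatives its ratio ranged from -1.02 to 0.16. Between diets the log2 ratio of Apoa4 was 2.30, 3.54 and 3.48 in the periportal, middle and pericentral zones for LPD control over CD control, and 2.29, 2.49 and 2.47 for LPD oncogene over CD oncogene. The difference was thus found in each zone as ranked within its library, and zones of the same name are not matched in score between libraries.

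The remaining members had shallow gradients or gradients that changed sign between libraries. Apob lay between -0.33 and 0.02, Mttp between -0.07 and 0.21 and Angptl4 between -0.14 and 0.67, the last in the library labelled CD control with 27.5, 32.3 and 43.7 CPM. Apoa2 was at -0.25 and -0.28 in the CD libraries but 0.97 and 0.70 in the LPD libraries, Apoe at -0.21 and -0.25 against 0.86 and 0.41, Apoa1 at -0.68 and -0.38 against 0.49 and -0.20, and Apoc3 at -0.60 and -0.68 against 0.38 (-0.12 without the haemoglobin-rich clusters) and -0.13. With a stricter filter of nuclei the CD values of Apoe became 0.36 and 0.20 and those of Apoa2 0.07 and 0.04. The median mitochondrial share from periportal to pericentral was 1.89, 2.82 and 1.36% in the library labelled CD control and 0.0681, 0.0853 and 0.108% in LPD control, so the zone with more mitochondrial RNA differed between these libraries as well, and its part in the gradients of the small genes was not tested. Of the 7 members with enough UMIs in all 4 libraries, 0 were pericentral past 2-fold in each, where 1.39% of 5615 genes were, and 0 were periportal, where 0.98% were. Nuclei near a limit between zones made up 14.0 to 22.2% of a library's hepatocytes.

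**Figure D4:**
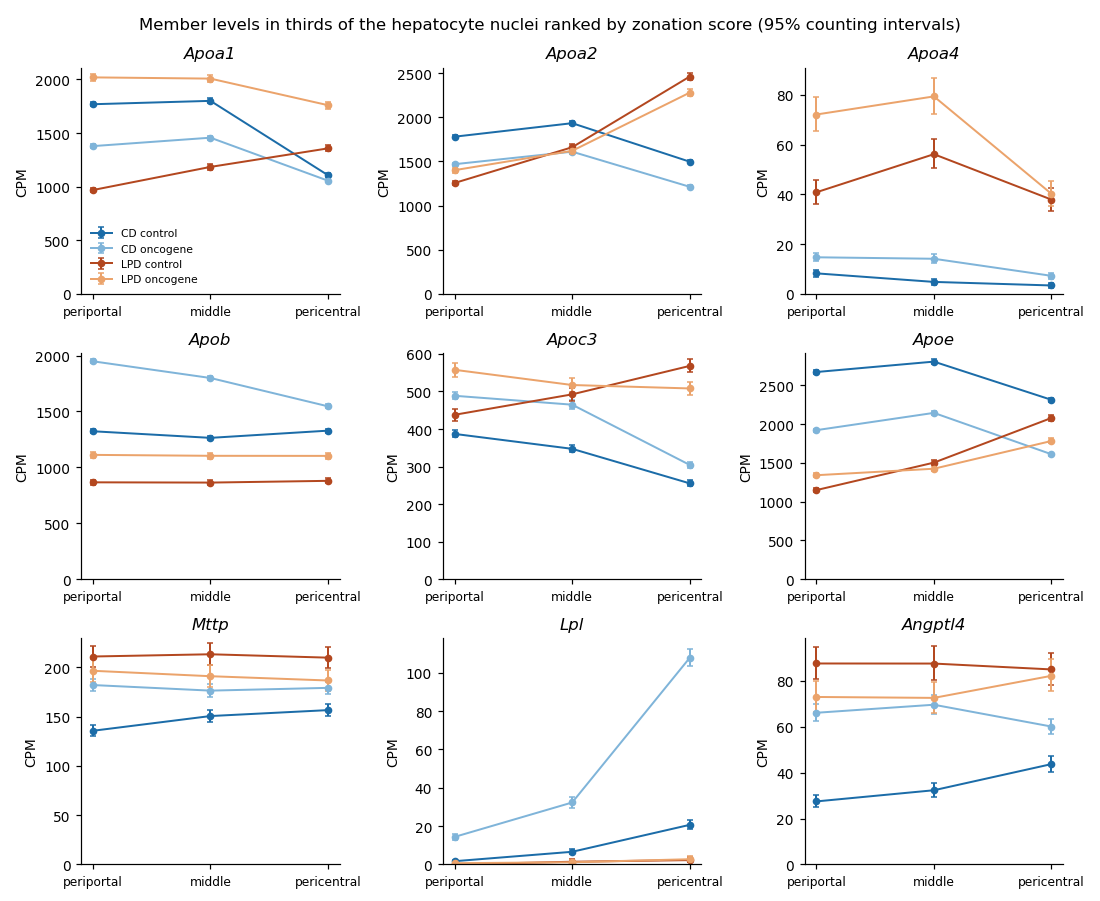
CPM of each member in the periportal, middle and pericentral zones of hepatocytes (1 panel per member, axis from 0), 1 line per library with 95% counting intervals. Zones were ranked within each library. Lpl climbs towards the pericentral zone in both CD libraries, to 20.7 and 107.9 CPM, and Apob and Mttp run nearly flat.

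In single nuclei, the share with a UMI was read after thinning each nucleus to 1000 UMIs and beside B, T and NK nuclei, which should hold hepatocyte genes only as free RNA. Lpl was found in 0.935, 4.38, 0.235 and 0.204% of thinned hepatocyte nuclei, and in 2.01, 9.28, 0.472 and 0.384% of those of the pericentral zone. In lymphocytes it was found in 13 of 391 in the library labelled CD oncogene (3.32%, 1.78 to 5.62). This interval covers the hepatocyte share of 4.38%. The other libraries held it in 0 of 348, 0 of 51 and 0 of 147 lymphocytes. Their limit was set at 3 nuclei, not at an exact interval, which allows shares of up to 0.862, 5.88 and 2.04%. Angptl4 was found in 3.54, 6.49, 8.09 and 7.89% of hepatocytes and in 1.44, 2.81, 5.88 and 2.72% of lymphocytes. Apoa4 was found in 0.637, 1.47, 5.26 and 6.85% of hepatocytes and in 0.862, 1.79, 7.84 and 6.12% of lymphocytes. At equal depth its share thus does not separate hepatocytes from lymphocytes. This comparison cannot place the transcript, because thinning takes more UMIs from the deeper hepatocyte nuclei and so removes an excess per nucleus. Per nucleus, hepatocytes held 0.0329, 0.0673, 0.118 and 0.174 Apoa4 UMIs. Lymphocytes held 0.0165, 0.0160, 0.0586 and 0.0398, on 10, 10, 17 and 24 UMIs. Without thinning the hepatocyte shares of Apoa4 were 3.02, 5.66, 9.63 and 13.9%, at median depths of 4789, 4060, 2242 and 2280 UMIs, and the lymphocyte shares 1.48, 1.60, 5.52 and 3.48%, at median depths of 658 to 1203 UMIs. The CPM of Apoa4 in hepatocytes therefore includes free RNA, in an amount that the subtraction given next estimates.

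Free hepatocyte RNA was measured with 19 hepatocyte genes that are not members. Per nucleus, lymphocytes held a median of 17.5, 20.3, 23.7 and 15.4% of the hepatocyte UMIs of these genes. For the members the range over libraries was 13.4 to 16.9% for Apob, 13.2 to 19.2% for Mttp and 11.1 to 16.6% for Angptl4, and higher for the small genes, at 18.7 to 32.4% for Apoa1, 25.7 to 40.7% for Apoa2, 22.8 to 50.1% for Apoa4, 22.6 to 32.1% for Apoc3 and 26.0 to 35.5% for Apoe. The single genes of the panel reached from 10.1 to 42.2%. After subtraction of the lymphocyte UMIs per nucleus the log2 ratio of Apoa4 was 2.44 for LPD oncogene over CD oncogene and stayed within its counting interval for LPD control over CD control, and that of Lpl between the CD libraries was 2.38.

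Of the other classes, Kupffer cells, the resident macrophages of liver, held Lpl above the free RNA level in 3 of 4 libraries. The level was 127 CPM (33 UMIs), 54.6 CPM (21 UMIs), 55.5 CPM (16 UMIs) and 89.4 CPM (71 UMIs) in 157, 258, 311 and 771 nuclei. Relative to hepatocytes of the same library this was 13.3-fold (9.04 to 18.96), 1.03-fold (0.634 to 1.57), 45.4-fold (22.7 to 88.5) and 57.9-fold (37.1 to 92.6), while no gene of the hepatocyte panel exceeded 1.09, 1.29, 1.14 and 0.732. The exception was the library labelled CD oncogene, whose hepatocytes held the most Lpl. After thinning, 10.4, 4.95, 5.32 and 8.71% of Kupffer nuclei had an Lpl UMI. In the 3 libraries above the panel, Kupffer Lpl thus spanned 55.5 to 127 CPM and hepatocyte Lpl 1.22 to 9.51 CPM.

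Stellate cells, the vitamin A-storing pericytes of the sinusoid, held Lpl at 25, 54.8, 26.6 and 20.3 CPM. The ratios to hepatocytes were 2.63, 1.03, 21.7 and 13.2, above the panel in each library, and the counting interval cleared the panel in all but the library labelled CD oncogene, on 5 UMIs in LPD oncogene. Finer clusters brought the CD oncogene ratio to 0.845, under the panel. T or NK nuclei held 3, 32, 0 and 1 UMIs of Lpl, of which the 32 gave 41.5 CPM. Apoe, which macrophages also make, was at 2664, 2703, 3461 and 2106 CPM in Kupffer cells, or 1.03, 1.45, 2.19 and 1.38 times the hepatocyte level, above the panel in 3 of 4 libraries. Apoa2 was above it in Kupffer cells of 3 of 4 libraries too, at up to 1.40 times the hepatocyte level. This count therefore does not set Apoe apart, and the source of its RNA was not tested.

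Over the 34 sets of a class in a library with at least 50 nuclei, Apob was above the panel in 0, at 0.202 to 0.698 times the hepatocyte level, and Apoa1, Mttp and Angptl4 in 1 each. Apoa2 was above it in 22, in 12 with its counting interval, at 0.467 to 2.04 times the hepatocyte level, and these included T or NK, sinusoidal endothelial and stellate sets of every library. Apoe was above it in 13, Apoa4 in 13 but only 1 with its interval, and Apoc3 in 6. Apart from Lpl, the short genes Apoa2, Apoa4 and Apoe were thus the members that exceeded the panel most often.

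**Figure D5:**
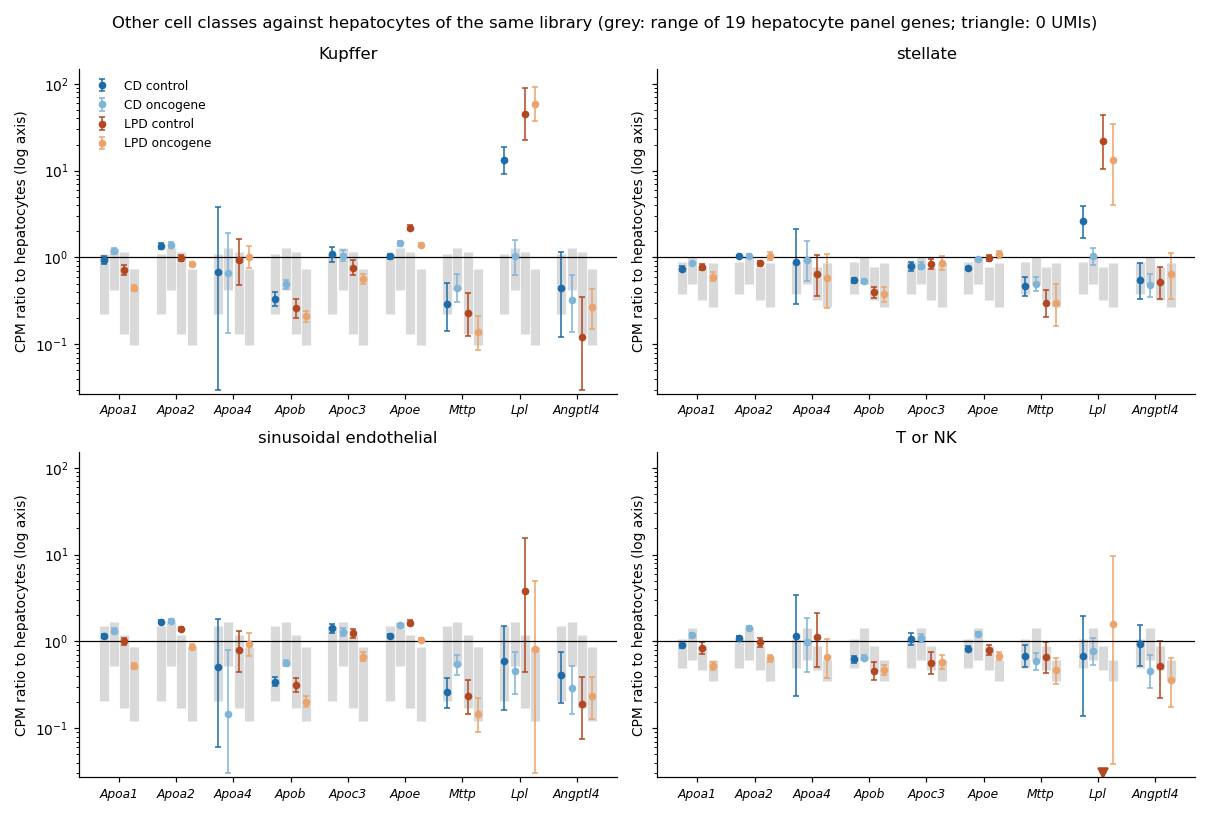
Ratio of each member's CPM in a cell class to its CPM in hepatocytes of the same library (log axis) in 4 classes, with 95% counting intervals, the range of the 19 hepatocyte panel genes in grey and a triangle for 0 UMIs. Lpl in Kupffer cells lies at 13.3, 45.4 and 57.9 in 3 libraries, and Apob stays at 0.698 or below.

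In the library labelled CD control, 85 of 7975 hepatocytes (1.07%) held a transgene UMI, and 81 of them lay in the pericentral zone. Their Apoa1 level was 666 CPM against 1573 CPM in the other hepatocytes (log2 -1.24, -1.37 to -1.12), and Lpl was at 29.9 against 9.15 CPM (1.71, 1.05 to 2.30, on 24 UMIs). These 2 members were past 2-fold, where 5.66% of 6602 genes were. Within the pericentral zone 0 were, with Apoa1 at -0.79 (-0.92 to -0.66) and Lpl at 0.41 (-0.30 to 1.05). Over all hepatocytes the other members were at -0.88 for Apoa2, -0.81 for Apoc3, -0.52 for Apoe, 0.11 for Apob, 0.21 for Mttp and 0.79 for Angptl4. Within the pericentral zone these were -0.70, -0.43, -0.39, 0.08, 0.14 and 0.47 in the same order. Apoa4 rested on 3 UMIs. Positive nuclei were also deeper, with a median of 7307 against 4761 UMIs.

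A wider list of 49 genes of lipoprotein metabolism was read beside the members. Between diets, 2 of the 42 genes tested were higher in LPD past 2-fold in all 4 pairs, where 4.02% of all genes were, and 3 were lower, where 1.39% were. The higher ones were Dgat2, which catalyses the last step of triglyceride synthesis, at 167, 188, 527 and 384 CPM, and Lipg, endothelial lipase, at 18.4, 9.72, 40.1 and 40.8 CPM. The lower ones were Pltp, which transfers phospholipid between particles, at 31.6, 30.8, 7.14 and 10.5 CPM, Sort1, a sorting receptor of the secretory route, at 77.0, 47.8, 18.4 and 19.1 CPM, and Pparg, a lipogenic nuclear receptor, at 53.2, 52.4, 17.4 and 23.1 CPM. Pparg was also the 1 gene of 38 that was pericentral past 2-fold in every library, at log2 ratios of 4.28 to 5.10.

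In single comparisons the list was mixed. LPD control over CD control had 5 genes of 44 higher and 5 lower, against 13.9% of all genes in either direction, the first including Apoa5 at 134, 431, 334.5 and 319 CPM, Tm6sf2, needed to lipidate very low density lipoprotein, at 3.38, 3.47, 20.01 and 13.7 CPM, and Foxo1, a transcription factor that insulin restrains, at 188, 279, 437.5 and 579 CPM. The lower ones included Angptl8, a partner of the lipase inhibitors that feeding induces, at 165, 17.8, 63.2 and 35.7 CPM, and the cholesterol exporter Abca1 at 502, 416, 236 and 208 CPM. LPD oncogene over CD oncogene had 5 of 43 higher and 6 lower, against 16.8%, among them the bile acid receptor Nr1h4 at 808, 708, 1327 and 1483 CPM, hepatic lipase Lipc at 625, 1226, 746 and 458 CPM, Apon at 42.6, 70.9, 30.6 and 32.1 CPM and the remnant receptor Sdc1 at 27.5, 48.4, 29.5 and 22.0 CPM. Between the CD libraries 2 of 42 were higher, Apoa5 and the high density lipoprotein receptor Scarb1, at 146, 341, 248 and 242 CPM, and 3 lower, among them Angptl8, against 5.85%. Between the LPD libraries Apobec1, the editing enzyme of Apob mRNA, was the 1 gene of 42 past 2-fold, at 50.7 and 105 CPM, against 3.06%. The crossed pairs had 4 of 45 higher and 5 lower for LPD control over CD oncogene, against 16.2%, and 5 of 42 higher and 6 lower for LPD oncogene over CD control, against 14.5%. The medians of the list were 0.02, 0.01, 0.17 and 0.04 in the first 4 comparisons, beside those of all genes given above.

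Other cell classes held several genes of this list above the free RNA level in every library. In Kupffer cells these were Apobec1 at 809, 367, 590 and 628 CPM, Pltp at 165, 101, 239.5 and 286 CPM, and Abcg1, Nr1h3 and Pparg. Sinusoidal endothelium held Gpihbp1, which anchors lipoprotein lipase to the capillary wall, at 102, 51.2, 117 and 96.4 CPM, with Abcg1 as well. Apoc1 exceeded the panel there too, at 0.93 to 1.82 times the hepatocyte level, but it also did so in T or NK nuclei of every library, so these values do not place it above free RNA. Abcg1 exceeded the panel in T or NK and stellate nuclei of every library as well. In T or NK nuclei it stood at 21.2 to 47.1 times a hepatocyte level of 0.538 to 1.04 CPM. Its excess was thus not particular to Kupffer cells and sinusoidal endothelium. Stellate cells held Nr1h4 at 1448, 1113, 2114 and 1579 CPM. The lipase and its anchor were therefore found in different classes.

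The genes whose levels followed each member most closely were named from Pearson's r of log2(CPM + 5) over 12 hepatocyte sets, the 4 libraries by 3 zones, among 7629 genes. The sets of a library share its depth and mitochondrial share, so these values are descriptions only. Apoa4 was followed by Bcor (0.988), Slc25a27 and Spaca6, and Lpl by Ube2h (0.968), Ndrg1 and Gm31333. Angptl4 was followed by Tnfrsf1b (0.977) and Taok3, and Mttp by Cdh18 (0.980), Acnat1 and Tnfrsf1b. Apob was followed by Aass (0.975), Cmtm6 and Cpeb4, Apoa1 by Lrg1 (0.918), Itih4 and Tgm2, and Apoa2 by Apoc4 (0.8999), Rpl31 and Ctsd. Apoc3 was followed by Apom (0.976), Trf and Tcn2, and Apoe by Ttc36 (0.910) and its chromosome 7 neighbour Apoc1.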

How the data were processed

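Single-nucleus RNA-seq of frozen mouse liver (10x 3′ kit) was measured in 4 libraries, 1 per group, grouped by their labels. The authors deposited UMI counts per gene and nucleus barcode, not normalized, made with Cell Ranger on mm10 with the human transgenes added, and used Seurat 5 afterwards. Whether introns were counted is not given in the sources used here.

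The 44010 barcodes were filtered as in the study (200 to 7000 genes, at most 21% mitochondrial UMIs), which left 42877. The libraries held 56514058, 62869348, 23260800 and 23172463 UMIs, and pairs of libraries shared 18 to 40 barcodes. Nuclei were clustered by the Louvain method in igraph 0.11.9 (5000 variable genes, 23 of 50 components, 20 neighbours, resolution 0.4), with the members and the wider list left out. Before clustering, the components were corrected for differences between the libraries by the Harmony method, written in numpy. Clusters were named from marker lists. The thresholds for naming clusters and for removing 1142 nuclei of doublet clusters were set after the counts were seen, and 1 nucleus stayed unnamed. Scrublet, run in scanpy 1.11.5, marked 0.048, 0.008, 20.05 and 4.89% of nuclei by its automatic limit, which failed in the CD libraries. The 8% highest scores were therefore removed as an alternative only.

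UMIs were summed per set and scaled to CPM. Poisson, conditional and Clopper-Pearson 95% intervals (scipy 1.17.1) cover counting error only. No p-value was computed. All 9 members are named, as are genes of the wider list past 2-fold or above the panel, and the 3 closest correlates of each member. Some genes that this rule names are not reported here. The code was tested on simulated counts. The members, lists, panel and comparisons were chosen with earlier results of these data known, so they are not independent of them. The alternatives were other scaling, filters of nuclei and genes, depth, cluster resolution, doublets, limits of fold and division of the lobule, and 4 were added after seeing the data: removal of haemoglobin-rich clusters for libraries and for zones, subtraction of lymphocyte UMIs and the split by mitochondrial share.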

Additional observations from a re-analysis of the deposited data

How the results depend on the processing

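Of the ratios of members between libraries under the alternatives, 458 of 486 kept their direction (crossed pairs included). So did 157 of 175 ratios between zones and 16 of 17 for transgene-positive nuclei, and no value past 2-fold changed sign. Shares of nuclei with a UMI have no direction to keep, and 3 of their 72 values stayed within the counting interval. Apoa4 ranged from 2.61 to 4.23 for LPD control over CD control, from 2.15 to 3.29 for LPD oncogene over CD oncogene and from 1.31 to 4.87 in the crossed pairs. Lpl ranged from 2.23 to 2.62 between the CD libraries. The cause of the changes below was not tested unless the construction gives it.

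With a 1.5-fold limit the counts of members past it were 2 for CD oncogene over CD control, 1 for LPD oncogene over LPD control, 5 for LPD control over CD control and 4 for LPD oncogene over CD oncogene and for LPD oncogene over CD control, and the counts of genes 1188, 677, 2395 and 2576, with 2679 for LPD control over CD oncogene and 2279 for LPD oncogene over CD control, and 793 higher and 210 lower in LPD in all 4 pairs, 134 pericentral and 103 periportal. With no filter on low genes, 6544, 5559, 9017 and 9406 genes were counted, with 9295 and 9170 in the crossed pairs, 1195 higher and 2097 lower in LPD in all 4 pairs, and 2 members between the CD libraries and 1 (Lpl) lower in LPD in all 4 pairs. TMM scaling gave 2 members between the CD libraries (Lpl and Angptl4) and 143 genes higher in LPD in all 4 pairs, in place of 263. Subtraction of lymphocyte UMIs gave 604 genes for CD oncogene over CD control, 719 for LPD oncogene over LPD control with 1 member (Apoa4), 1551 for LPD control over CD control, 1646 for LPD oncogene over CD control, and 245 lower in LPD in all 4 pairs. A mitochondrial limit of 1% gave 5 members for LPD oncogene over CD oncogene and 4 for LPD oncogene over CD control. Within the pericentral zone, 0 members were past 2-fold in transgene-positive nuclei, in place of 2.

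No paired analysis was possible because each group has 1 library. For the same reason no library could be left out. Depth limits Lpl most: 25 and 29 UMIs in the LPD hepatocytes.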
